A study of Homo sapiens with 9 samples.

Results

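Long intergenic noncoding RNAs carry the symbol LINC followed by digits, a name given to spliced RNAs that code for no known protein and lie between protein-coding genes. Some act at the chromatin of neighbouring genes, some elsewhere in the cell, and for most no function is known. Many are made in few cell types, and some are transcribed next to regulators of a lineage, as LINC00261 is beside FOXA2, a forkhead factor of liver and gut endoderm. The RNAs described here were selected on measured values: a LINC gene was a member when its raw counts, summed over the 9 libraries, reached 90. Of the 2271 LINC genes counted, 221 reached that sum, 927 had between 1 and 89 counts, and 1123 had 0 counts in all libraries. LINC01224 and LINC01589 lay just inside the limit with 90 counts each, and LINC02934 and LINC02994 just outside with 89 each.

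The libraries came from Huh-7, a human hepatocellular carcinoma cell line, in 3 forms with 3 libraries each: unmodified cells (WT), cells in which the vault RNA gene VTRNA1-1 had been knocked out (1-1 KO), and cells in which VTRNA1-2 had been knocked out (1-2 KO). Vault RNAs are short noncoding RNAs made by RNA polymerase III and named after the vault particle. WT and 1-1 KO cells had been obtained from another laboratory, and the 1-2 KO grew from 1 CRISPR/Cas9-edited WT cell, so each knockout was 1 line and a difference cannot be told apart from a difference between clones. All lines were grown in the same serum-containing medium without treatment, and polyadenylated RNA was sequenced in stranded libraries. The labels do not say whether the 3 libraries of a line came from separate cultures, so that p-values measure the spread among these libraries only.

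Total counts ran from 32384469 to 41782387 per library. Libraries of a line were compared by a chi-square divided by its degrees of freedom. The 1-2 KO replicate 1 stood apart from its line, at 15.1 and 16.1 from the other libraries, against 2.67 between those. Pairs of WT libraries gave 5.03, 6.41 and 10.4, and pairs of 1-1 KO libraries 2.07 to 3.46. The main counts of calls that involve 1-2 KO are also given without 1-2 KO replicate 1. Counts of 1-1 KO calls with each library left out are given at the end. The knockouts could not be checked in these libraries, since VTRNA1-2 had 0 counts everywhere, VTRNA1-1 at most 1 and VTRNA1-3 at most 2. All 10 hepatocyte markers were present, with a summed level of 15056 to 15996 CPM (reads of a gene scaled to the size of its library) in WT, 31226 to 32166 in 1-1 KO and 21246 to 23269 in 1-2 KO. Of the markers of other cells, 2 of 5 leukocyte, 1 of 5 endothelial and 4 of 5 fibroblast genes reached 30 counts in a library. The fibroblast sum was 166 to 177 CPM in WT, 220 to 231 in 1-1 KO and 83.4 to 88.7 in 1-2 KO. It was mostly LUM, which averaged 157 CPM in WT and 62.1 in 1-2 KO, while PDGFRB averaged 1.77 and 6.53 and COL1A1 11.4 and 13.3, and DCN had at most 5 counts. The endothelial sum, nearly all PECAM1, was 7.42 to 8.04 CPM in WT, 6.43 to 7.22 in 1-1 KO and 0.831 to 1.10 in 1-2 KO, with KDR at 0 counts. The leukocyte sum was 1.52 to 1.63, 3.38 to 3.62 and 2.62 to 3.18 CPM in these lines, with MS4A1 at 0 counts. The part of these markers in the LINC changes was not tested.

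Most LINC RNAs were scarce. The median member had 268 counts over all libraries, 95 members averaged 1 CPM or more and 16 averaged over 10 CPM. Together the members took up 0.0832% to 0.0956% of a library's counts. A single RNA, LINC00261, made up 38.8% of all member counts, and the 6 with the most counts 54.9%. By biotype in GENCODE 44, 213 members were long noncoding RNAs and 8 were transcribed pseudogenes. An annotated gene on the opposite strand overlapped 119 members and one on the same strand 72, and whether reads were assigned by strand is not given in the sources used here, so for these members reads of the partner cannot be told apart.

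Per kilobase of exon, the highest level belonged to LINC00261 at 57.3 CPM per kb, averaged over the lines. It was counted 13031, 12511 and 10166 times in WT, 14842, 14150 and 14393 times in 1-1 KO, and 15332, 15439 and 15053 times in 1-2 KO. As CPM this was 328 ± 5.7 (SD, n = 3) in WT, 349 ± 4.6 in 1-1 KO and 376 ± 12 in 1-2 KO, and the lines did not overlap. In such bulk libraries fewer cells that make an RNA and less RNA per cell cannot be told apart. The increase in 1-2 KO over WT was 0.20 on the log2 scale (SE 0.03, adjusted p = 0.00022, edgeR quasi-likelihood test with Benjamini-Hochberg adjustment), while that in 1-1 KO, 0.09 (SE 0.03, adjusted p = 0.032), lost the call without WT replicates 1 or 3 or without 1-1 KO replicates 1 or 3. FOXA2, whose gene lies 2.36 kb away on the same strand, was at 40.9 ± 2.4 CPM in WT, 45.7 ± 0.45 in 1-1 KO and 38.6 ± 3.2 in 1-2 KO. It rose by 0.16 on the log2 scale in 1-1 KO (adjusted p = 0.027, edgeR) and its difference in 1-2 KO, -0.08, did not pass the test (adjusted p = 0.27).

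The next levels per kilobase were those of LINC00888 (30.4 CPM per kb), LINC00680 (19.8), LINC02313 (16.4), LINC00674 (13.6) and LINC00987 (11.7). LINC00888, LINC00680 and LINC00674 are transcribed pseudogenes with merged exons of 421, 181 and 160 bases, where reads of a parent gene can be counted and a level per kilobase is imprecise. LINC00888 rose in both knockouts, from 8.56 ± 0.85 CPM in WT to 13.9 ± 1.0 in 1-1 KO and 15.9 ± 0.19 in 1-2 KO (SD, n = 3). LINC02313 was at 11.8 ± 1.3 CPM in WT and 13.4 ± 0.72 in 1-1 KO but 1.88 ± 0.38 in 1-2 KO, where every library lay below every other. LINC00987 showed no call in any comparison, with 40.4 ± 10 CPM in WT, 38.2 ± 1.6 in 1-1 KO and 41.2 ± 5.0 in 1-2 KO. The steadiest members averaging at least 1 CPM, by the range of the log2 CPM over libraries, were LINC00963 (range 0.17), LINC00261 (0.27) and LINC00857 (0.28). LINC00963 gave 6.58 ± 0.33, 6.40 ± 0.27 and 6.59 ± 0.21 CPM in the order WT, 1-1 KO, 1-2 KO.

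A LINC RNA was taken to switch when every library of a line had 3 counts or fewer, every library of another line had 30 or more, and the lines differed at an adjusted p under 0.05. Such an RNA entered the list through the line where it was high, so the number of switches describes the data and is not evidence of more switching than among other genes. There were 8: LINC02864, LINC02691, LINC00923, LINC01249, LINC02301, LINC02404, LINC02006 and LINC01036. For each, the counts in the libraries follow with the ratio between lines. Where the low line had 0 counts throughout, the fold is a lower bound against a floor of 3 counts per library. Where it had 1 to 3 counts in some library, the ratio of summed counts, scaled by library size, is given with its exact 95% interval, which covers counting error only.

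LINC02864 (ENSG00000263711, chromosome 18, 73151241 to 73264480, minus strand) had 113, 93 and 77 counts in WT, 219, 179 and 172 in 1-2 KO, and 0 in each 1-1 KO library. It was at least 35.7-fold higher in WT and at least 64.3-fold higher in 1-2 KO than in 1-1 KO. In 1-2 KO it also exceeded WT, by 0.85 on the log2 scale (SE 0.13, adjusted p = 0.00011, edgeR). This was the switch with the most counts and the one that was off in 1-1 KO while on in both other lines.

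4 RNAs were on in 1-2 KO and nearly silent elsewhere. LINC02691 (ENSG00000258913, chromosome 14, 104223584 to 104288069, plus strand) had 83, 89 and 89 counts in 1-2 KO, 1, 1 and 2 in WT and 0 in 1-1 KO. The ratio of 1-2 KO to WT was 58.2 (22.5 to 215), and 1-2 KO was at least 29.6-fold higher than 1-1 KO. LINC00923 (ENSG00000251209, chromosome 15, 97572185 to 97875650, minus strand) had 83, 58 and 66 counts in 1-2 KO, but 1, 1 and 0 in WT and again in 1-1 KO. Its ratio was 92.3 (25.2 to 767) against WT and 105 (28.8 to 876) against 1-1 KO. LINC02301 (ENSG00000258743, chromosome 14, 82642600 to 82746664, plus strand) had 40, 30 and 43 counts in 1-2 KO and summed to 1 count in each of the other lines, a ratio of 101 (17.7 to 4016) against WT. LINC01249 (ENSG00000231532, chromosome 2, 4628216 to 4656498, minus strand) had 43, 38 and 41 counts in 1-2 KO, 2, 2 and 4 in WT, and 1, 3 and 0 in 1-1 KO, a ratio of 31.1 (11.8 to 116) against 1-1 KO, and it exceeded WT by 3.71 on the log2 scale (SE 0.40). All 4 had adjusted p-values between 3.3e-09 and 3e-07 for 1-2 KO against 1-1 KO (edgeR quasi-likelihood test). A call between the low and the high line was part of the rule for a switch, so these p-values are no separate support.

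The remaining 3 switches had other patterns. LINC02404 (ENSG00000257893, chromosome 12, 91876924 to 91880659, plus strand) was off in 1-2 KO, with 0, 0 and 1 counts, against 11, 17 and 12 in WT and 44, 34 and 36 in 1-1 KO. Its ratio of 1-1 KO to 1-2 KO was 112 (19.7 to 4461). LINC02006 (ENSG00000238755, chromosome 3, 153384934 to 153980186, minus strand) had 3, 3 and 2 counts in WT, 33, 31 and 46 in 1-1 KO and 9, 12 and 11 in 1-2 KO, so that the 3 lines were separate and the ratio of 1-1 KO to WT was 12.0 (5.90 to 28.6). LINC01036 (ENSG00000230426, chromosome 1, 187070700 to 187687674, plus strand) had 0 counts in WT, 27, 29 and 42 in 1-1 KO, and 30, 30 and 35 in 1-2 KO, at least 9.47-fold and 9.34-fold above WT. The knockouts did not differ in LINC01036 beyond their spread (log2 difference -0.02, SE 0.24, adjusted p = 0.95, edgeR).

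**Figure D1:**
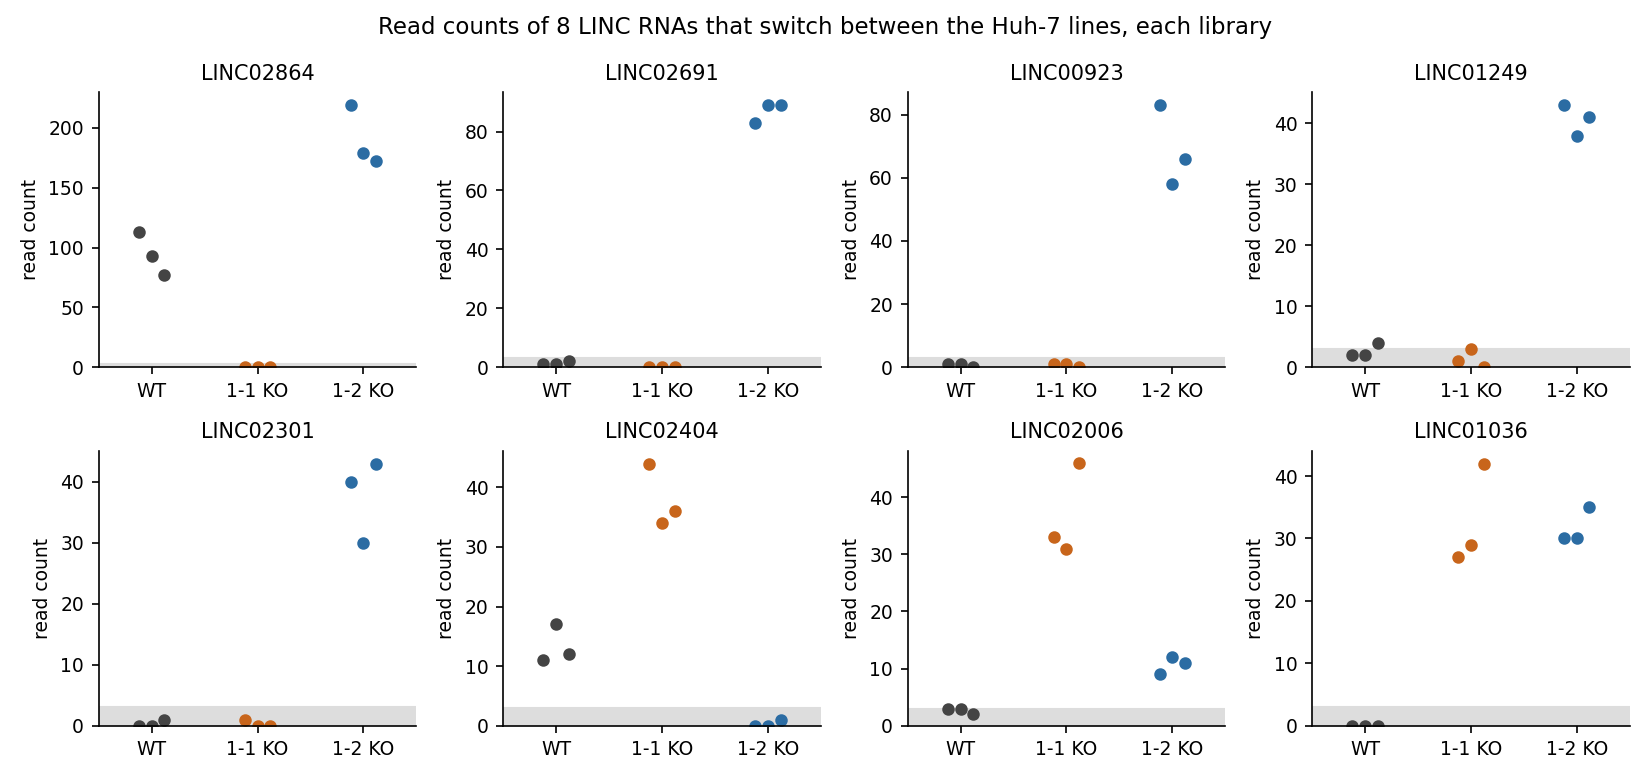
Read counts (vertical axis, linear, from 0) of the 8 switching LINC RNAs in the order WT, 1-1 KO, 1-2 KO, 1 point per library, with 0 to 3 counts shaded. LINC02691, LINC00923, LINC01249 and LINC02301 are high in 1-2 KO, with 30 counts or more in every library, while LINC02864 has 0 counts in 1-1 KO.

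The switches differed in length, with LINC02404 among the shorter and LINC01036 among the longer genes. Their median gene length was 108.7 kb and their median distance to a protein-coding gene 200.2 kb, against 30.8 kb and 17.4 kb for the other 213 members. No test was made of these differences. Over all members, 5 were at 3 counts or fewer in every WT library, 5 in every 1-1 KO library and 2 in every 1-2 KO library.

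RefSeq (GRCh38.p14) gave promoter windows, 250 bases before to 50 after a start site, for 157 of the 221 members, in 184 windows. The 4 switches with a window are printed to show the annotated start of RNAs that were on in one line and off in another, and LINC00261 as the abundant and steady contrast. All are 5′ to 3′ on the strand of the gene. Capitals mark any match, on either strand, to TATAAA (the TATA box), CCAAT (bound by NF-Y), GGGCGG (bound by Sp1), CAAAGTCCA (an HNF4A site) or GTTAAT (an HNF1 half-site). Matches of different motifs can share letters, as the end of CAAAGTCCA and the start of CCAAT do. The windows are chr14:104223334-104223633 (plus) for LINC02691, chr15:97874380-97874679 (minus) for LINC00923, chr2:4656173-4656472 (minus) for LINC01249, chr12:91876878-91877177 (plus) for LINC02404 and chr20:22578593-22578892 (minus) for LINC00261. The RefSeq start lay on the GENCODE start for LINC02691 and LINC00261, and 1221, 276 and 204 bases from it for LINC00923, LINC01249 and LINC02404.
LINC02691: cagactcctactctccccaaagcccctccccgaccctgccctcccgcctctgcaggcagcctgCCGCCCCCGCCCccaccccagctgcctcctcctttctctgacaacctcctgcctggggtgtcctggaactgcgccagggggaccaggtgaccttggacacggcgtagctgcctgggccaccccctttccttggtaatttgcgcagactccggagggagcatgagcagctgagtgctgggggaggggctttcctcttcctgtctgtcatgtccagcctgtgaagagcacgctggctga
LINC00923: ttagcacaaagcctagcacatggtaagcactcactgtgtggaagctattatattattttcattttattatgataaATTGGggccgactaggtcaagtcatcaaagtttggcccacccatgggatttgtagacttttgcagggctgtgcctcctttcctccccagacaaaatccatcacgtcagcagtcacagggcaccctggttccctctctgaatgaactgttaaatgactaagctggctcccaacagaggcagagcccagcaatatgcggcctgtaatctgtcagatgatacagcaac
LINC01249: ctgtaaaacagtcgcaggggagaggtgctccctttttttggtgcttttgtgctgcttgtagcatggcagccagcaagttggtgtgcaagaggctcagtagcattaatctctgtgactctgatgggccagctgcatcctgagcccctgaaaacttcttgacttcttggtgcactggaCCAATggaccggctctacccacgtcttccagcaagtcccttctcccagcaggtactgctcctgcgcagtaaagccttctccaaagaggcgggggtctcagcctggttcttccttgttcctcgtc
LINC02404: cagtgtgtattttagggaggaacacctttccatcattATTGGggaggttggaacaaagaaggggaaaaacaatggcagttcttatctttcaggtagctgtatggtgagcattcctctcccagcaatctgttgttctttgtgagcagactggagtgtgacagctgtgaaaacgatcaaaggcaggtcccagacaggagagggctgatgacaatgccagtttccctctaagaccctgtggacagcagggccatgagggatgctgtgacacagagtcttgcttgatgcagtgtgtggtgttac
LINC00261: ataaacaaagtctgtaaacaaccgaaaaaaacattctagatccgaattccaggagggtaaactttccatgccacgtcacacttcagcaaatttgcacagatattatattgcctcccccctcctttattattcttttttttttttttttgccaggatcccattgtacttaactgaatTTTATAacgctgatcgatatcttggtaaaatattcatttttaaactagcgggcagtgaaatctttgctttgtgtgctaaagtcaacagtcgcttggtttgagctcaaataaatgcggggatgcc

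LINC02691 held GGGCGG matches, and LINC00923, LINC01249 and LINC02404 each a CCAAT match, while LINC00261 had a TATAAA match. Over all member windows TATAAA was found in 15.8%, CCAAT in 41.8%, GGGCGG in 38.0%, GTTAAT in 7.61% and CAAAGTCCA in 0%. Over the 35116 RefSeq windows the shares were 11.5%, 34.6%, 45%, 6.88% and 0.384%. The member windows had a median of 8 CpG dinucleotides, against 14 in all windows. These are matches of letters and not binding sites.

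In 1-1 KO against WT, the first comparison, 72 members were higher, 32 were lower and 117 did not pass the test (edgeR, adjusted p under 0.05), while 32.5% of all 17207 tested genes were higher and 30.9% lower. The share of members that rose, 32.6%, was thus near the background and the share that fell, 14.5%, below it. Among the 4694 tested genes with summed counts from 90 to 853, up to the upper quartile of the members, 29.3% were higher and 15.3% lower, near the members' shares. Among the 1573 other long noncoding RNA genes tested 27.0% were higher and 13.7% lower. A called change of more than 1 on the log2 scale was found for 47 members, 35 up and 12 down (21.3%), against 13.4% of all tested genes and 25.9% of those in the same range of counts. The median member log2 fold change was 0.13, against 0.01 over all tested genes.

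In 1-2 KO against WT, 47 members were higher and 43 lower, against 28.2% and 26.2% of all tested genes. As shares, 21.3% of the members rose and 19.5% fell, and in the same range of counts 25.3% and 12.2% of genes. Changes over 1 on the log2 scale were called for 42 members, 21 up and 21 down (19.0%), against 11.7% of tested genes and 22.7% of those in the same range of counts. Among the other long noncoding RNA genes 16.6% were higher, 13.0% lower and 12.5% called with a change over 1. Without 1-2 KO replicate 1, 43 members were higher and 33 lower, and 41 changed by more than 1. The median member log2 fold change was 0.06, against 0.02 over all tested genes.

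In 1-2 KO against 1-1 KO, 44 members were higher and 70 lower, with 33.1% and 32.2% of all tested genes called in these directions. The members' shares were 19.9% and 31.7%, and those in the same range of counts 23.6% and 23.9%. Changes over 1 on the log2 scale were called for 59 members, 19 up and 40 down (26.7%), against 14.1% of tested genes and 25.6% of those in the same range of counts. Among the other long noncoding RNA genes 17.7% were higher, 25.2% lower and 18.5% called with a change over 1. Without 1-2 KO replicate 1, 36 were higher, 63 lower and 53 changed by more than 1. All 221 members passed the filter on low counts, so these counts cover each of them, and the plot of ranked fold changes shows every member.

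**Figure D2:**
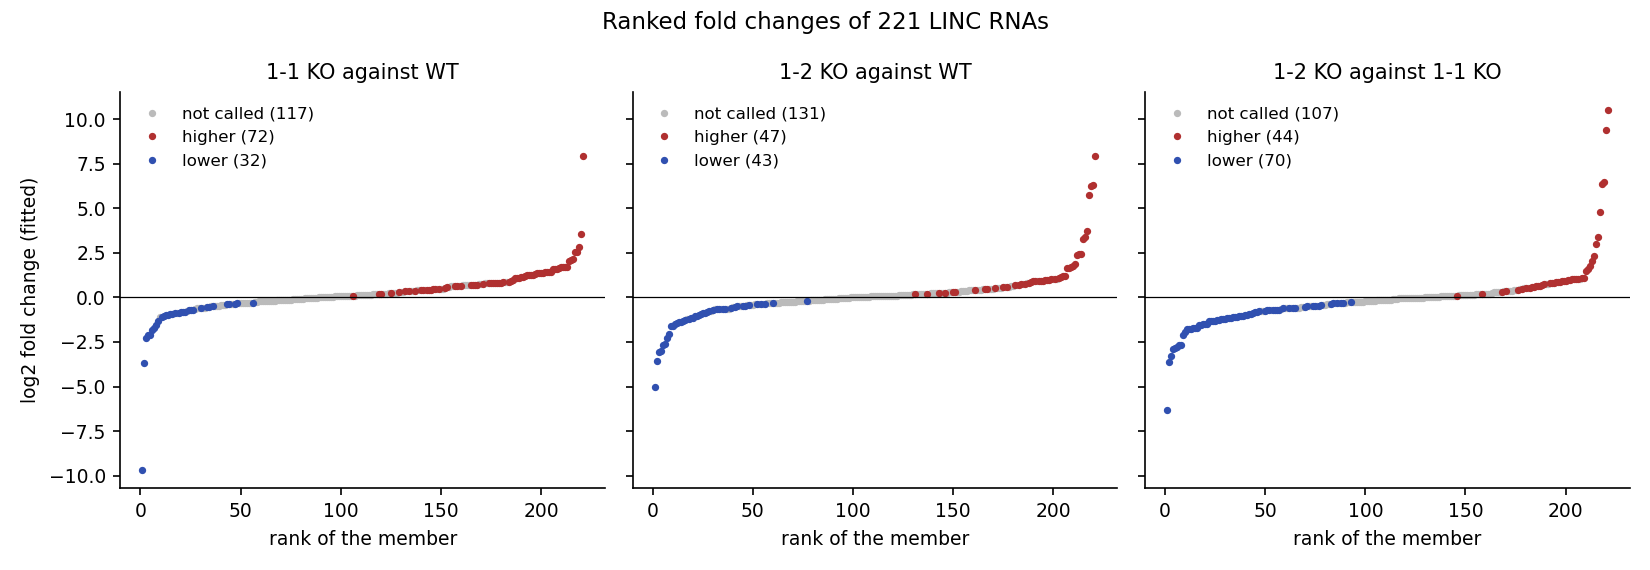
Fitted log2 fold change (vertical axis) of the 221 members ranked from lowest to highest (horizontal axis) in the 3 comparisons, with members called higher in red, lower in blue and not called in grey. The 72 members (32.6%) higher in 1-1 KO than in WT outnumber the 32 (14.5%) that were lower. In 1-2 KO against 1-1 KO the 70 lower members (31.7%) outnumber the 44 higher ones (19.9%). Of all tested genes 32.5% and 30.9% were higher and lower in 1-1 KO, and 33.1% and 32.2% in the direct comparison. Of tested genes with summed counts from 90 to 853 these shares were 29.3% and 15.3%, and 23.6% and 23.9%.

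Members in which every library of a line lay above or below all 6 libraries of the other lines were also counted. For WT, 17 members lay above (15.3% of all tested genes did so) and 33 below (15.2% of tested genes). For 1-1 KO, 43 lay above (23.4% of tested genes) and 20 below (22.1% of tested genes). For 1-2 KO, 29 lay above (17.6% of tested genes) and 34 below (16.6% of tested genes). As shares of the 221 members these were 7.69% and 14.9%, 19.5% and 9.05%, and 13.1% and 15.4%. No line had a larger share of the members than of all tested genes on either side. Among the 1573 other long noncoding RNA genes tested the shares were 6.55% and 10.8%, 19.6% and 9.73%, and 9.54% and 9.66%. The members' shares were above these on both sides for WT and 1-2 KO, and slightly below them for 1-1 KO. These differences were not tested.

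Outside the switches, the largest rises in 1-1 KO over WT, among members that averaged at least 1 CPM and whose libraries did not overlap, were those of LINC01882, LINC01504, LINC02593 and LINC02518. LINC01882 had 22, 28 and 19 counts in WT, 113, 98 and 131 in 1-1 KO, and 24, 30 and 34 in 1-2 KO, a log2 rise in 1-1 KO of 2.11 (SE 0.19, adjusted p = 2.6e-07, edgeR). LINC01504 rose by 1.73 (SE 0.20) and LINC02518 by 1.44 (SE 0.16) on the log2 scale. In 1-2 KO these 3 differed from WT by 0.19, 0.53 and 0.10, with adjusted p-values of 0.52, 0.06 and 0.71 (edgeR), and each was lower in 1-2 KO than in 1-1 KO. LINC02802 (-1.55), LINC00598 (-1.30), LINC01278 (-1.09) and LINC02331 (-1.0) fell most in 1-1 KO under the same limits. LINC02331, the most abundant of these, had 724, 691 and 570 in WT, 394, 405 and 336 in 1-1 KO, and 777, 767 and 744 in 1-2 KO. LINC02802 lies beside copies of the PPIAL4 and FAM72 gene families, where reads can map to more than 1 place.

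Under the same limits of level and separation, the largest rises in 1-2 KO were those of LINC02593 (3.30 on the log2 scale), LINC02709 (1.01), LINC02532 (1.00) and LINC02035 (0.93). LINC02709 had 97, 102 and 89 counts in WT, 114, 120 and 112 in 1-1 KO, and 211, 214 and 228 in 1-2 KO. Under these limits and outside the switches, LINC02675 (-3.04), LINC02313 (-2.65), LINC01559 (-2.29) and LINC02625 (-2.04) fell most. Among members under 1 CPM larger changes were fitted from few counts, as in LINC00632, which had 3, 5 and 1 counts in WT, 28, 20 and 28 in 1-1 KO, and 37, 32 and 41 in 1-2 KO, and was named after its values were seen. LINC02313 had 522, 443 and 330 counts in WT, 598, 553 and 518 in 1-1 KO, and 65, 72 and 92 in 1-2 KO (adjusted p against WT of 5e-10, edgeR). LINC01559 had 70, 35 and 53 counts in WT, 72, 78 and 87 in 1-1 KO, and 12, 15 and 9 in 1-2 KO. LINC02675 lies near AGAP9, of a multigene family on chromosome 10, so its reads are uncertain.

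Against WT, 11 of the 221 members were called in opposite directions in the knockouts, while 11.7% of all tested genes were. Without 1-2 KO replicate 1 the number was 9. Among the 11 were LINC02864, LINC02404, LINC02675, LINC00598 and LINC02691, of which the last never exceeded 2 counts in WT and 1-1 KO libraries. LINC00472, which overlaps OGFRL1 on the opposite strand, had 31, 18 and 13 counts in WT, 7, 6 and 8 in 1-1 KO, and 85, 82 and 55 in 1-2 KO. It fell by 1.73 in 1-1 KO and rose by 1.68 in 1-2 KO on the log2 scale, and OGFRL1 changed there by -0.80 and 0.96. LINC00511 had 116, 118 and 120 counts in WT, 227, 199 and 218 in 1-1 KO, and 47, 37 and 60 in 1-2 KO, with separate lines in the reverse order. It rose by 0.66 and fell by 1.47, while its neighbour SLC39A11, a zinc transporter gene, changed by -0.15 and -0.56. LINC02988 followed the order of LINC00472, at -1.83 and 1.19, whereas LINC01958, LINC02038 and LINC02747 rose in 1-1 KO by 0.43 to 1.12 and fell in 1-2 KO by 0.38 to 0.66. These 6 were named after their values were seen.

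The nearest protein-coding gene of each member was then found by the gap between gene bodies. It overlapped 30 members, lay a median of 39.2 kb away from the others, and passed the filter on low counts for 177. In 1-1 KO against WT the nearest gene was tested for 81 called members. It was called in the same direction for 41 of these (50.6%), in the opposite direction for 26 (32.1%) and in neither for 14. In 1-2 KO against WT the nearest gene moved with 41 of 74 called members (55.4%) and against 15 (20.3%). Without 1-2 KO replicate 1 it moved with 31 and against 13 of the called members, or 49.2% alike. In the direct comparison of the knockouts it moved with 42 of 87 (48.3%) and against 25 (28.7%), and without 1-2 KO replicate 1 with 40 (50.6%). The first 2 comparisons share the WT libraries, so their agreement is not independent.

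Since 32.5% and 30.9% of all tested genes were higher and lower in 1-1 KO, a call is common in any neighbour, and neighbours of called members were set beside those of members without a call. Of the neighbours of members higher in 1-1 KO, 28 of 60 were higher (46.7%) and 22 lower (36.7%). Of those of lower members, 4 of 21 were higher (19.0%) and 13 lower (61.9%). Of those of members without a call, 29 of 96 were higher (30.2%) and 33 lower (34.4%). In 1-2 KO, neighbours of higher members were higher in 22 of 39 (56.4%) and lower in 7 (17.9%), neighbours of lower members were higher in 8 of 35 (22.9%) and lower in 19 (54.3%), and those of members without a call were higher in 31 of 103 (30.1%) and lower in 30 (29.1%). Without 1-2 KO replicate 1, neighbours of higher members in 1-2 KO were higher in 19 of 36 (52.8%), those of lower members were lower in 12 of 27 (44.4%), and those of members without a call were higher in 25.6% and lower in 29.9%. In each of these 4 groups the share called in the direction of the member was above that beside members without a call; the differences between shares were not tested, and members can share a neighbour.

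**Figure D3:**
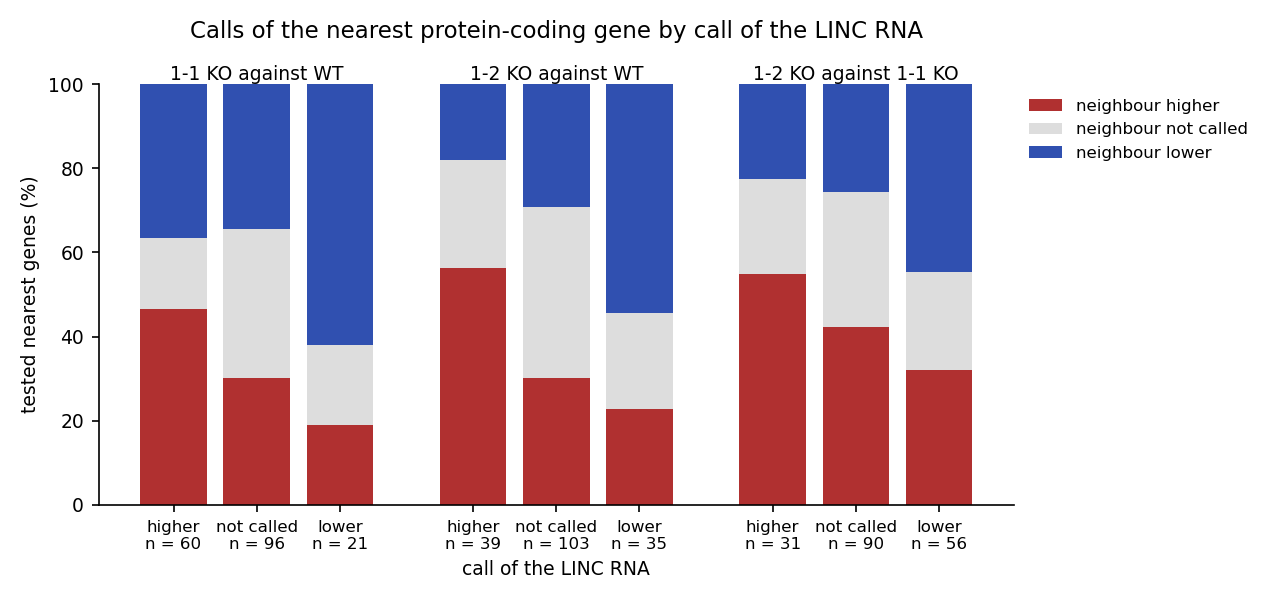
Share (vertical axis, percent, from 0) of tested nearest protein-coding genes that were called higher (red), not called (grey) or lower (blue), by the call of the LINC RNA in the 3 comparisons, with the number of tested neighbours under each bar. Neighbours of higher members were higher in 46.7% for 1-1 KO and 56.4% for 1-2 KO, against 30.2% and 30.1% beside members without a call.

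Across the 177 pairs the log2 fold changes of member and neighbour had a Spearman rho of 0.29 in 1-1 KO and 0.34 in 1-2 KO, with Pearson r of 0.29 and 0.04. These correlations run over genes measured in the same libraries and are descriptions. With the gene on the other side of the member in place of the nearest, the direction was the same for 38 of 64 tested genes in 1-1 KO (59.4%) and 26 of 60 in 1-2 KO (43.3%). Other long noncoding RNA genes had a nearest gene called in the same direction in 59.4% and 57.0%, and in the opposite direction in 16.0% and 13.0%. The 2 sets are unlike in distance, since 1072 of these 1573 genes overlapped their nearest gene, against 30 of the 221 members. For members within 10 kb of the neighbour but not overlapping, 19 of 31 moved alike and 5 opposite in 1-1 KO, and 16 of 26 and 5 in 1-2 KO. For members more than 100 kb away, 4 of 13 moved alike in 1-1 KO and 12 of 21 in 1-2 KO. For other long noncoding RNA genes within 10 kb without overlap, 72 of 126 moved alike in 1-1 KO and 47 of 87 in 1-2 KO. Over 100 kb away it was 7 of 25 and 10 of 18. For pairs with both genes called, the median change of 50 neighbouring protein-coding genes was then subtracted from both, without new calls. The remaining changes had the same sign in 36 pairs and opposite signs in 31 in 1-1 KO, and in 41 and 15 in 1-2 KO.

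Pairs in which member and neighbour were both called with changes over 1 on the log2 scale numbered 8 in each knockout against WT. The direction was the same in 7 for 1-1 KO and 5 for 1-2 KO. Over all tested genes such changes were mostly rises, 1617 up and 683 down in 1-1 KO and 1483 up and 527 down in 1-2 KO. A shared direction is therefore frequent between any genes with such changes, and the agreement of these pairs was not tested. LINC00923 and ARRDC4, an arrestin-domain protein of glucose metabolism, are divergent genes with starts 85.1 kb apart. ARRDC4 had 16, 9 and 7 counts in WT, 14, 4 and 22 in 1-1 KO, and 200, 209 and 201 in 1-2 KO, and rose by 4.08 on the log2 scale in 1-2 KO (SE 0.28, adjusted p = 2.2e-08, edgeR), the line in which LINC00923 was on. The median of the surrounding 50 genes there was 0.08. On the other side NR2F2, an orphan nuclear receptor, differed by -0.14.

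LINC02593 and SAMD11 are divergent with 2.91 kb between them. LINC02593 had 14, 16 and 17 counts in WT, 60, 62 and 56 in 1-1 KO, and 191, 162 and 170 in 1-2 KO. SAMD11 had 98, 96 and 117 counts in WT, 227, 218 and 232 in 1-1 KO, and 721, 620 and 636 in 1-2 KO. The order of the lines was the same in both genes and no lines overlapped. LINC02593 rose by 1.72 on the log2 scale in 1-1 KO and by 3.30 in 1-2 KO, and SAMD11 by 0.92 and 2.49, the last 2 with adjusted p-values of 2e-05 and 4.6e-10 (edgeR).

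LINC00543 lies between CDX2, 5.55 kb away and the homeobox gene of the intestinal lineage, and PDX1, 27.2 kb away and the homeobox gene of the pancreas. It had 2, 10 and 5 counts in WT, 16, 18 and 25 in 1-1 KO, and 44, 36 and 25 in 1-2 KO. CDX2 had 74, 66 and 77 counts in WT, but 803, 834 and 776 in 1-1 KO and 819, 652 and 680 in 1-2 KO, a rise of 3.28 (SE 0.11) and 3.14 (SE 0.11) on the log2 scale. PDX1 had 5, 3 and 3 counts in WT, 35, 37 and 43 in 1-1 KO, and 75, 40 and 46 in 1-2 KO. The 3 genes rose in both knockouts (adjusted p at most 0.0064, edgeR), while the median of the surrounding 50 genes was -0.09 in 1-1 KO and 0.07 in 1-2 KO.

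Other pairs moved in opposite senses between the knockouts. LINC02404 lies 259.6 kb from BTG1, an antiproliferative gene, which was at 40.3 ± 1.8 CPM in WT, 62.5 ± 1.4 in 1-1 KO and 26.4 ± 1.0 in 1-2 KO (SD, n = 3). Its changes of 0.63 and -0.61 on the log2 scale (adjusted p = 2.8e-08 and 8.9e-08, edgeR) had the signs of those of LINC02404, 1.31 and -5.03. LINC00598 lies 19.9 kb from FOXO1, the forkhead factor that insulin signalling holds out of the nucleus. LINC00598 had 48, 58 and 53 counts in WT, 27, 23 and 24 in 1-1 KO, and 98, 95 and 106 in 1-2 KO. FOXO1 was at 36.0 ± 0.65, 24.01 ± 0.15 and 41.1 ± 1.4 CPM in these lines, and changed by -0.58 (SE 0.04) and 0.19 (SE 0.04, adjusted p = 0.0019, edgeR) on the log2 scale.

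LINC01036 and LINC01322 moved with their neighbours in 1-1 KO but against them in 1-2 KO. In 1-1 KO against WT, LINC01036 and PLA2G4A changed by 7.97 and 2.06 on the log2 scale, and LINC01322 and BCHE by -2.29 and -2.74. In 1-2 KO the changes were 7.95 and -5.90, and -3.03 and 5.43. The fitted values of LINC01036, with 0 counts in WT, depend on the prior count. PLA2G4A, the cytosolic phospholipase that releases arachidonic acid, lies 81.7 kb from LINC01036 on the same strand. It had 127, 120 and 93 counts in WT, 553, 510 and 557 in 1-1 KO, and 3, 2 and 1 in 1-2 KO, so that it was high in 1 knockout and nearly absent in the other, while LINC01036 was on in both. The ratio of WT to 1-2 KO for PLA2G4A was 63.5 (28.9 to 174). BCHE, which codes for butyrylcholinesterase, overlaps LINC01322 on the opposite strand. LINC01322 had 33, 29 and 21 counts in WT, 8, 2 and 9 in 1-1 KO, and 6, 2 and 3 in 1-2 KO, and fell in both. BCHE had 13, 16 and 8 counts in WT, 2, 3 and 1 in 1-1 KO, and 578, 596 and 622 in 1-2 KO, a ratio of 1-2 KO to 1-1 KO of 305 (140 to 832).

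The other pairs with changes over 1 in 1-1 KO were LINC02988 with PLEKHO1, LINC02035 with SLC49A4, LINC03015 with FAM20C, LINC00842 with ANXA8L1, all alike, and LINC01278 with SPIN4, opposite. FAM20C, a Golgi kinase of secreted proteins, had 0, 1 and 1 counts in WT but 116, 116 and 145 in 1-1 KO, a ratio of 165 (45.4 to 1369), while LINC03015 rose from 8, 7 and 6 counts to 21, 22 and 16. SPIN4 lies inside LINC01278 on the same strand, so its reads cannot be told apart from those of the longer gene. In 1-2 KO the others were LINC02506 with PCDH7, a protocadherin, and LINC00240 with H2BC11, a histone H2B gene, both alike, and LINC02625 with CABCOCO1, opposite. LINC02331, which fell in 1-1 KO by 1.0, lies 98.9 kb from BMP4, a ligand of the transforming growth factor family, which rose there by 1.49 (SE 0.07). BMP4 was at 6.46 ± 0.53 CPM in WT, 18.1 ± 0.40 in 1-1 KO and 9.08 ± 0.20 in 1-2 KO.

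For the switches themselves the neighbour often gave no test. NETO1, a subunit that assists glutamate receptors and the gene nearest LINC02864, had 0 counts in WT and 1-1 KO and 21, 7 and 11 in 1-2 KO. KIF26A, a kinesin and the gene nearest LINC02691, had 0 counts in WT and 1-1 KO and 14, 14 and 8 in 1-2 KO. DCDC2C, 780.2 kb from LINC01249, had 0 counts in all libraries. SEL1L, of the degradation of proteins from the endoplasmic reticulum, lies 1109 kb from LINC02301 and rose by 0.37 in 1-1 KO and 0.25 in 1-2 KO. ARHGEF26, nearest LINC02006, changed by 0.25 in 1-1 KO and -0.17 in 1-2 KO on the log2 scale, where LINC02006 rose in both. The scatter of member against neighbour shows that the large LINC changes had small neighbour changes as well as large ones.

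**Figure D4:**
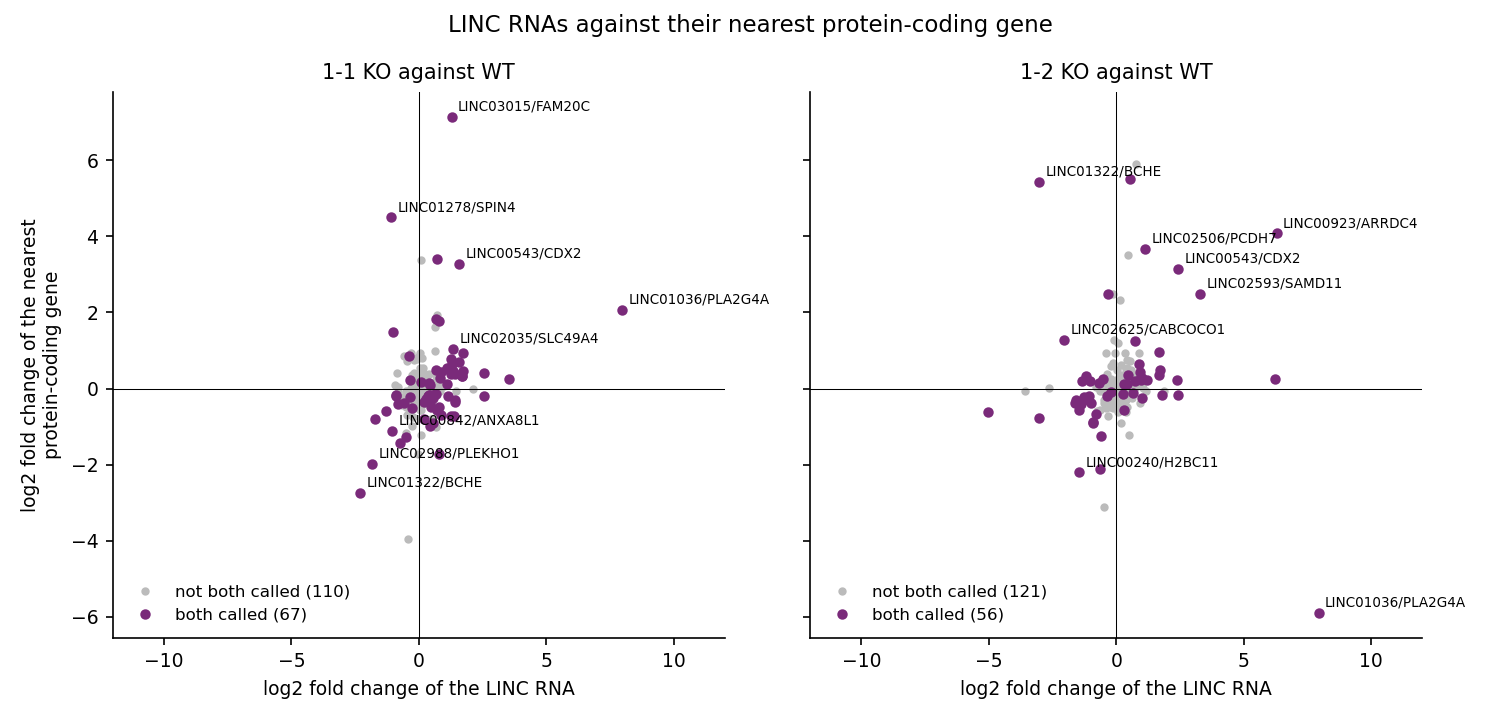
Log2 fold change of each LINC RNA (horizontal axis) against that of its nearest protein-coding gene (vertical axis) for the 177 pairs in which the gene was tested, with pairs called in both genes in purple and those with both changes over 1 named. LINC00923 with ARRDC4 sits at 6.30 and 4.08 in 1-2 KO, and LINC01036 with PLA2G4A at 7.97 and 2.06 in 1-1 KO but 7.95 and -5.90 in 1-2 KO.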

How the data were processed

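Polyadenylated RNA of 3 Huh-7 lines, WT and the 1-1 and 1-2 knockouts, with 3 libraries each, was sequenced. The authors aligned the reads to GRCh38 with STAR and deposited raw read counts per gene made with featureCounts; tool versions, the strand setting and the handling of reads with several alignments are not given in the sources used here. Of 60664 gene identifiers 60463 matched GENCODE 44, a later annotation than the Ensembl release used for counting, which gave symbols, positions and merged exon lengths, and 201 did not, with 0.0192% of the counts.

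Genes were tested with edgeR 4.0.16 (R 4.3.3): genes kept by filterByExpr (10 counts minimum, 15 in total), TMM scaling, 1 quasi-likelihood fit over the 9 libraries with line as the term, and Benjamini-Hochberg adjustment over 17207 genes at 0.05. CPM use TMM-scaled library sizes, and the SE is the log2 fold change divided by the square root of F. No column was left unassigned. Members and gene lists were chosen with earlier results of these data known. Named members are the switches, the 6 highest per kilobase, the 4 largest rises and falls per knockout among called members that averaged at least 1 CPM with separate libraries, the 3 steadiest, and those at the limit; the pairs with both changes over 1, members called in opposite directions in the knockouts, and LINC00543 were named after their values were seen. Replicate numbers did not pair the libraries. Alternatives were DESeq2 1.42.0, other scalings, filters and thresholds, a replicate block, other neighbours and each library left out. The counts of changes over 1, of opposite calls and of neighbours by call without 1-2 KO replicate 1 were added after seeing the data.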

Additional observations from a re-analysis of the deposited data

Results flagged for a closer look

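For 5 named members the knockouts were called in opposite directions against WT. The direct comparison of 1-2 KO with 1-1 KO was also called (edgeR quasi-likelihood test). All 5 were picked by their opposite calls in these same libraries, so the p-values of the direct comparison are no separate support. LINC02864, LINC02404 and LINC02691 were also chosen as switches between the knockouts. LINC02864, with 0 counts in 1-1 KO, differed by 10.53 on the log2 scale, a fitted value that depends on the prior count (adjusted p = 1.6e-10). LINC02404, with 0 to 1 counts in 1-2 KO, differed by -6.34 (SE 0.53, adjusted p = 9.7e-08). LINC02675 rose by 0.56 in 1-1 KO and fell by 3.04 in 1-2 KO, a difference of -3.60 (SE 0.21, adjusted p = 2.6e-09). LINC00598 fell by 1.30 in 1-1 KO and rose by 0.74 in 1-2 KO, a difference of 2.04 (SE 0.17, adjusted p = 7.6e-08). The fifth, LINC02691, had a direct difference of 9.40 (adjusted p = 3.3e-09), but at most 2 counts in any WT or 1-1 KO library, and its call in 1-1 KO against WT (adjusted p = 0.023) was lost under DESeq2 (adjusted p = 0.051) and without WT replicate 3 or any of the 1-1 KO libraries.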

How the results depend on the processing

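With DESeq2 the members lower in 1-1 KO than in WT numbered 18 in place of 32. With at least 10 counts in every library, which tests fewer genes, they numbered 20, those higher and lower in 1-2 KO than in WT 27 and 26, and those higher and lower in 1-2 KO than in 1-1 KO 26 and 45. At an adjusted p under 0.01 the members lower in 1-1 KO numbered 19, those lower in 1-2 KO than in WT 28, those higher in 1-2 KO than in 1-1 KO 27, and the neighbours moving with a member in 1-2 KO 25. With a summed count of at least 180, 27 members were lower in 1-2 KO than in WT. Requiring 0 counts in the low line left 3 switches, and 100 counts in the high line 1. Counting only neighbours within 50 kb left 23 that moved alike in 1-2 KO against WT and 22 in the direct comparison. Of the called members 45 and 50 had no gene that near. As shares of tested neighbours these were 54.8% and 42.3%, against 55.4% and 48.3% in the main counts. With a replicate block 71 and 27 members were higher and lower in 1-1 KO, 46 and 40 in 1-2 KO, and no count moved by over 1.5 times; the numbers did not pair the libraries (same-number correlations from -0.19 to 0.05). Leaving out any library gave 8 or 9 switches, 61 to 75 members higher in 1-1 KO than in WT and 22 to 32 lower. Of 1495 values of named members under other settings none reversed, 35 lost a call and 5 gained one. Depth limits RNAs of few counts, whose intervals are wide.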

Other observations

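LINC genes under the sum of 90 included RNAs that never exceeded 3 counts in a line and always had at least 10 in another. LINC02600, LINC00838, LINC00942 and LINC01900 were on in 1-1 KO and low in WT, with sums of 70, 57, 67 and 85 counts. LINC01049, LINC02249 and LINC01399 were on in 1-2 KO and low in WT, with sums of 47, 72 and 74. LINC00838 and LINC01900 were also low in 1-2 KO, and LINC01049 in 1-1 KO.

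Members lying close together did not always move together. LINC00242 and LINC00574, which overlap on chromosome 6, rose by 1.26 and 1.38 on the log2 scale in 1-1 KO. LINC02747 and LINC01488, 117 bases apart on chromosome 11, were called in opposite directions in 1-2 KO against WT, at -0.49 and 0.92. LINC01977 and LINC01979 on chromosome 17 rose by 0.82 and 2.56 in 1-1 KO.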
